A study of Mus musculus with 64 samples.

Results

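Thermogenic fat genes are the genes that let brown and beige adipocytes burn fuel for heat, and 8 of them were followed here by gene symbol among the 25107 symbols listed in any of 4 mouse tissue tables: Adrb3, Dio2, Ppargc1a, Prdm16, Zic1, Cidea, Elovl3 and Ucp1. The white fat table lists 7 of the 8 (it has no Zic1 row), the heart and lung tables list 8 each, and the liver table lists 6 (no Ucp1 or Dio2 row). RNA was sequenced from 64 libraries, 3 per group in white fat and lung and 5 per group in heart and liver. All mice carried a Cre transgene and the floxed Bmal1 alleles (Cre+:iMSBmal1 fl/fl). The groups were trained knockout (iMSBmal1KO with exercise training), sedentary knockout (iMSBmal1KO with no exercise), trained vehicle and sedentary vehicle mice. Trained mice had 6 weeks of daily treadmill running. All tissue is described as collected 48 hours after a final bout, although the sedentary mice had no exercise. Bmal1 is one of the factors that drive circadian transcription and was removed from skeletal muscle, a tissue not analysed here. The vehicle mice carry the same Cre and floxed alleles, so an effect of the treatment that induces the knockout and an effect of the knockout cannot be told apart. The promoter that drives Cre, the age and the sex of the mice, and the hour of collection are not given in the sources used here. No label says that the libraries of a group come from separate animals, so p-values measure the spread between these libraries.

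In brown and beige fat, noradrenaline binds the beta-3 adrenergic receptor, cAMP rises, and protein kinase A drives both lipolysis and transcription of thermogenic genes. Adrb3 encodes that receptor. Dio2 encodes the deiodinase that makes active thyroid hormone inside the cell, and Ppargc1a encodes PGC-1 alpha, a coactivator of mitochondrial biogenesis; both are induced by cAMP in brown fat. Prdm16 is a transcriptional regulator of brown and beige identity, and Zic1 is a zinc finger factor used as a marker of classical interscapular brown fat. Cidea is a lipid droplet protein, Elovl3 a fatty acid elongase and Ucp1 the uncoupling protein that dissipates the proton gradient as heat, whose transcription cAMP also raises.

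The cAMP response element, spelled TGACGTCA with TGACG as its core, is shown in capitals in the promoters of the 3 cAMP-induced members whose windows are in the RefSeq table for GRCm38.p6. These are the 250 bases before the start, 5′ to 3′ on the strand of the gene. They are shown because Dio2 was the only member that passed the test and because the share of Ppargc1a reads from the start at this window did not overlap between knockout and vehicle fat of the same training state, without passing a test.
Dio2, chr12:90739039-90739288, minus strand: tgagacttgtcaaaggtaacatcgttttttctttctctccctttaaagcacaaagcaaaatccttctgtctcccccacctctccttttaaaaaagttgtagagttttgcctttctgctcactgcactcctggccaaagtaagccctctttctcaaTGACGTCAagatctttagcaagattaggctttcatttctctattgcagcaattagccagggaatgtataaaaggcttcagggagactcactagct
Ppargc1a, chr5:51567726-51567975, minus strand: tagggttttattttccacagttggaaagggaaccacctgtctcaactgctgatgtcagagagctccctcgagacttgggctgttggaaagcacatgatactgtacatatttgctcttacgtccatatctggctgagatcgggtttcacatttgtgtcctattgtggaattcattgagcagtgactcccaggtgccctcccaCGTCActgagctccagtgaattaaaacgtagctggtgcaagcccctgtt
Ucp1, chr8:83290098-83290347, plus strand: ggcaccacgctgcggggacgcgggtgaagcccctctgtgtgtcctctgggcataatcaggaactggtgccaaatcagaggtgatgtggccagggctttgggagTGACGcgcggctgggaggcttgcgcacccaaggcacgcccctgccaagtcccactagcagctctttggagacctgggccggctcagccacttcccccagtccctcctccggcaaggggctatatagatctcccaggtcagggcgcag
The full element TGACGTCA starts 95 bases before the start of Dio2 and reads the same on both strands. Of 32851 windows of 250 bases in the table, 1.55% hold it on either strand. The core TGACG alone lies 147 bases before the start of Ucp1 and, on the opposite strand, 49 bases before the start of Ppargc1a. It is a common word, held by 17.8% of windows on either strand, and the full element contains it. The windows of Prdm16 and Zic1 hold neither spelling. Windows of Adrb3, Elovl3 and Cidea were not searched. Matches are letters in these windows and not measured binding sites.

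Depth per library was 19 to 31.2 megareads in fat and 18.7 to 35.7 in lung, and an estimated 14.1 to 21 per heart and 12.4 to 20.7 per liver library. Levels are in CPM, counts per megaread. The targeted gene, listed as Arntl, stood at 1.23 to 3.09 CPM in fat, 0.347 to 1.40 in heart, 1.72 to 3.28 in lung and 0.270 to 3.22 in liver. The adipocyte hormone Adipoq marked the fat libraries, at 1860 to 2900 CPM. The series title names the fat as inguinal, yet markers of mesothelium, the lining of visceral fat pads, were present in every fat library. Upk3b was 104 to 357 CPM, Wt1 23.4 to 69.6 and Msln 19.7 to 72.6, while Tbx15, a gene of subcutaneous fat, was at most 0.316 CPM and En1 at most 0.974. These depot markers were picked after their values were seen. The fat is called white fat here.

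Across tissues the 8 genes did not share 1 tissue of highest level. The tables were normalised separately, so levels set across tissues are a description. Adrb3 was highest in white fat (558 to 1370 CPM over 12 libraries), followed by lung (15 to 27.8, 12 libraries), liver (1.84 to 11.8, 20 libraries) and heart (0 to 4.89, 20 libraries). Fat and lung did not overlap, nor did lung and liver, while liver and heart did. Prdm16 was highest in lung at 27.0 to 55.1 CPM, then heart at 11.2 to 17.8, fat at 4.08 to 10.7 and liver at 0.0700 to 0.755, with no overlap between neighbours in that order. Ppargc1a stood at 66.9 to 120 CPM in heart, above all other tissues, whose ranges overlapped at 6.68 to 15.7 in lung, 5.35 to 12.8 in liver and 4.60 to 10.3 in fat. Elovl3 was a liver gene in these data, at 28.0 to 136 CPM there and at most 4.43 CPM elsewhere. Cidea was 14.6 to 41.2 CPM in heart, 2.30 to 17.2 in lung, 0.795 to 2.90 in fat and 0 to 10.1 in liver, so that each neighbouring pair in that order of medians overlapped. Dio2 was 1.27 to 13.7 CPM in fat, 0.441 to 2.65 in heart and 0.137 to 1.78 in lung, again overlapping. Ucp1 was 0 to 48.8 CPM in heart, 0 to 23.7 in lung and 0 to 1.03 in fat, also overlapping. Zic1 did not pass 1.57 CPM in any library.

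**Figure D1:**
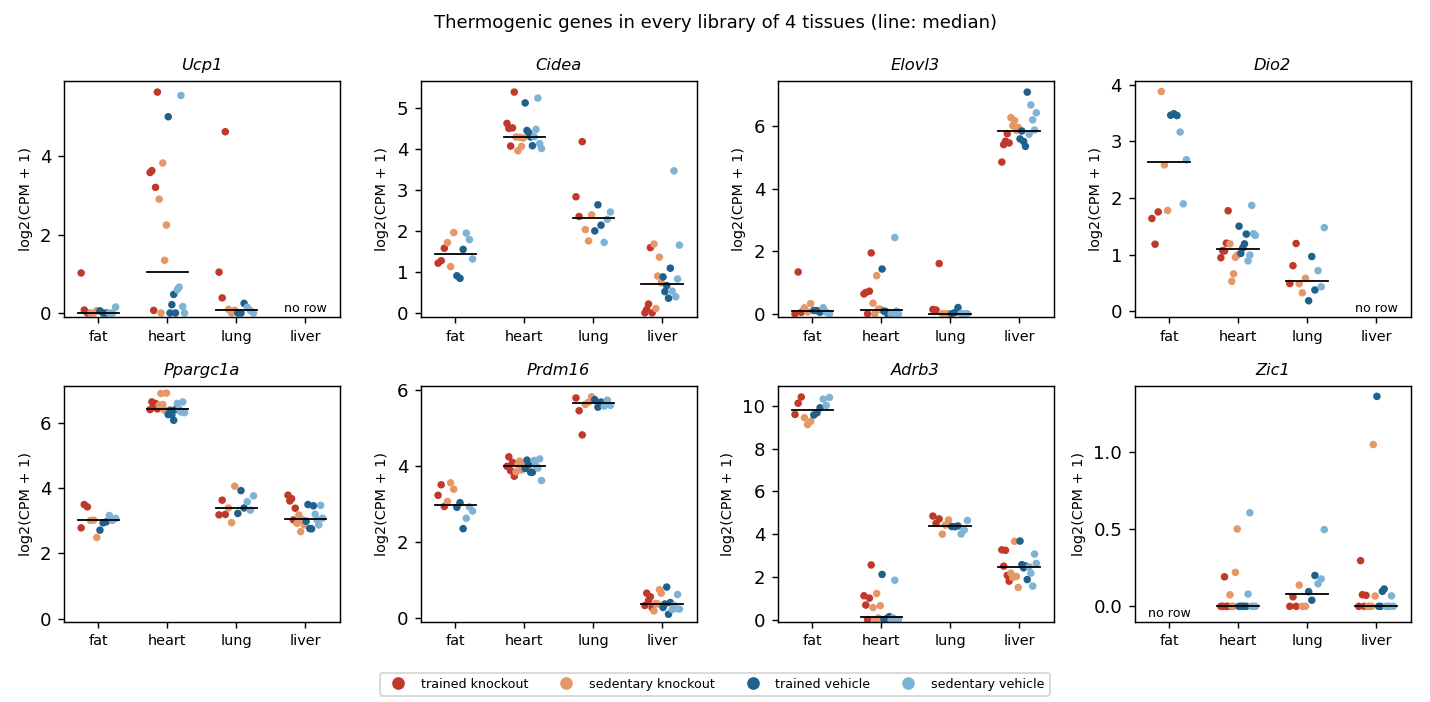
Levels of the 8 thermogenic genes in every library as log2(CPM + 1), by tissue. Each point is 1 library, coloured by group, and the line is the tissue median. Adrb3 is highest in fat, Ppargc1a and Cidea in heart, Prdm16 in lung and Elovl3 in liver, and Ucp1 is high in single heart and lung libraries.

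In white fat, the deiodinase gene Dio2 was lower in trained knockout mice than in trained vehicle mice, and the receptor gene Adrb3 was lower in sedentary knockout mice than in sedentary vehicle mice without passing the test. Ucp1 was at or near 0 in 11 of 12 libraries. Of the 7 listed members 5 passed the filter on low values (Adrb3, Dio2, Ppargc1a, Prdm16 and Cidea). The tests below are edgeR's quasi-likelihood test with Benjamini-Hochberg adjustment over 15448 genes, with an adjusted p under 0.05 as the limit for a call. In bulk tissue, fewer cells of a type and less RNA per cell cannot be told apart.

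Adrb3, the receptor, lies on chromosome 8 from 27715804 to 27719617 on the minus strand (GRCm39, as for all positions from here on). Its level was 778, 1120 and 1370 CPM in the trained knockout libraries and 700, 558 and 620 CPM in the sedentary knockout libraries. It was 763, 819 and 966 CPM in the trained vehicle libraries and 1280, 1040 and 1350 CPM in the sedentary vehicle libraries. Every sedentary knockout library lay under every sedentary vehicle library, and trained libraries lay above sedentary ones among knockouts and under them among vehicle mice. The log2 fold change of knockout over vehicle in sedentary mice was -0.96 (SE 0.21), with an adjusted p of 0.059 in edgeR. For trained over sedentary it was 0.76 (SE 0.21, adjusted p 0.143) in knockout mice and -0.55 (SE 0.21, adjusted p 0.203) in vehicle mice. The difference between these training effects, 1.31 on the log2 scale (SE 0.29), had an unadjusted p of 0.00087 and an adjusted p of 0.119 in edgeR. It passed in DESeq2 (adjusted p 0.00121), which called 5.04% of all genes for this difference. In edgeR it passed when trained knockout replicate 1 was left out (log2 difference 1.51, adjusted p 0.026). That library had the lowest Adrb3 level of its group, so leaving it out enlarges the difference. Without that library the sedentary knockout difference also passed (log2 fold change -0.96, adjusted p 0.0432 in edgeR). The library is in neither group of that comparison and enters it only through the shared fit. Leaving it out there was a choice made after seeing the data. In trained mice the knockout over vehicle value was 0.35 (SE 0.21, adjusted p 0.305), where the groups overlapped.

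Dio2, on chromosome 12 from 90691326 to 90705813 on the minus strand, is the 1 of the 5 members with a window whose window holds the full TGACGTCA printed above. Its level was 2.11, 1.27 and 2.37 CPM in the trained knockout libraries (43, 24 and 74 estimated reads) and 10, 10.2 and 9.95 CPM in the trained vehicle libraries (264, 281 and 283 reads). The trained knockout values lay under every trained vehicle value and under all the other fat libraries. Sedentary levels were wide, at 13.7, 4.99 and 2.43 CPM in knockout and 7.95, 2.72 and 5.38 CPM in vehicle mice, and these groups overlapped. The log2 fold change of knockout over vehicle in trained mice was -2.38 (SE 0.57, adjusted p 0.0468 in edgeR), a ratio of mean CPM of 0.191. It was the 1 call among the 5 members tested, in a comparison where 4.43% of all genes were called in either direction and 3.59% were called lower. An unadjusted p under 0.05 was likewise seen for 1 of the 5, against 25.4% of all genes. The adjusted p was near the limit. It passed in DESeq2 as well, which called 12.6% of all genes, but missed the limit with no filter on low genes (0.053) and in each of the 6 fits that left out 1 library of the comparison (0.0541 to 0.18), while the log2 fold change stayed between -2.57 and -2.12. For trained over sedentary, Dio2 had a log2 fold change of -1.90 (SE 0.57, adjusted p 0.169) in knockout mice and 0.89 (SE 0.54, adjusted p 0.411) in vehicle mice. The difference of these training effects was -2.79 (SE 0.78, adjusted p 0.137) in edgeR and passed in DESeq2 (-2.76, adjusted p 0.0132).

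Markers of immune cells moved in the same comparison as Dio2. Of 7 macrophage markers, 5 were called lower in trained knockout than in trained vehicle fat, with a median log2 fold change over the list of -0.852 against -0.003 over all genes tested. They included the lysozyme gene Lyz2 (-1.42, SE 0.27, adjusted p 0.0369) and the complement genes C1qa (-0.71, SE 0.13) and C1qb (-0.85, SE 0.16), each with an adjusted p of 0.0363 in edgeR. The summed level of the 7 markers was 1410 to 2620 CPM in trained knockout, 1860 to 2960 in sedentary knockout, 4100 to 5070 in trained vehicle and 2260 to 3120 in sedentary vehicle libraries. Among the B and T cell markers, the complement receptor gene Cr2 was called lower (-3.31, SE 0.76, adjusted p 0.043 in edgeR). The summed level of that list was 44.3 to 53.3 CPM in trained knockout and 49.7 to 247 CPM in trained vehicle libraries. Trained vehicle fat had the highest macrophage sums of the 4 groups and also Dio2 values within 9.95 to 10.2 CPM. Hepatocyte markers apart from Cyp2e1 summed to 20.6 to 2460 CPM in trained knockout and 10 to 79.9 CPM in trained vehicle fat. The part of these markers in the Dio2 result was not tested.

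The genes whose level was most like that of Dio2 over the 12 fat libraries were Sbk2 (Pearson r 0.961), Cstb (0.939), Npy (0.938), Atp6v1c1 (0.936) and Maoa (0.935), out of 12272 ranked on log2(CPM + 1). For Adrb3 they were Vegfb (0.964), Klhl2 (0.955), Tmem143 (0.948), Slc1a3 (0.944) and Ivd (0.939). The libraries of a group share these values, and the rankings for Dio2 and Adrb3 were added after their values were seen.

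Ppargc1a, the coactivator, spans chromosome 5 from 51611591 to 51725068 on the minus strand, with 3 transcripts in the table and 2 starts. Its summed level was 5.88, 10.3 and 9.75 CPM in trained knockout, 7.05, 7.11 and 4.60 in sedentary knockout, 5.55, 6.65 and 6.82 in trained vehicle and 7.95, 7.07 and 7.43 CPM in sedentary vehicle libraries. Replicate 1 was the lowest of the 3 trained knockout libraries, and the other 2 lay above all libraries of the other groups. Knockout over vehicle in trained mice gave a log2 fold change of 0.44 (SE 0.22, adjusted p 0.236 in edgeR). Without trained knockout replicate 1 it was 0.66 (SE 0.18, adjusted p 0.0429 in edgeR) and passed. Leaving out the lowest library of the group raises the group mean, so this pass is no separate support. With all libraries DESeq2 did not call Ppargc1a in this comparison. The difference between the training effects was 0.69 (SE 0.31, adjusted p 0.267).

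Within each training state, knockout and vehicle fat did not overlap in the share of Ppargc1a reads from each start, and no test of this share passed. The distal start lies 13804 bases upstream of the other, and distal transcripts of this gene are known to respond to beta-adrenergic signals and to exercise in muscle. It corresponds to the RefSeq promoter printed above, since the gene extends 113476 bases to that window in GRCm38.p6 and 113477 bases to the distal start in the files, against 99673 bases to the proximal one. The share of estimated reads assigned to the distal start was 35.3, 22.4 and 9.36% in trained knockout and 17.3, 20 and 17.2% in sedentary knockout libraries. It was 4.58, 7.40 and 6.69% in trained vehicle and 6.07, 10.2 and 6.60% in sedentary vehicle libraries. Both knockout groups lay above the vehicle group of the same training state without overlap. The mean share was 18.2 ± 1.59% in sedentary knockout and 7.62 ± 2.25% in sedentary vehicle fat (SD, n = 3 each), and 22.4 ± 13% in trained knockout and 6.22 ± 1.47% in trained vehicle fat (SD, n = 3 each). The two-sided exact permutation p was 0.1 in each case, the smallest that 3 against 3 libraries allow. Replicate 1 of the trained knockout group, with the highest share, had 42.4 distal reads of 120 in all. In edgeR across 28235 transcripts the distal transcript had a log2 fold change of 2.08 (SE 0.50) for knockout over vehicle in trained mice, with an unadjusted p of 0.00151 and an adjusted p of 0.0916. In sedentary mice it was 1.06 (SE 0.49, adjusted p 0.429). Only 0.00354% of transcripts were called in trained mice and 0% in sedentary mice. The 2 proximal transcripts gave 0.27 (SE 0.35) and -0.08 (SE 0.56) in trained mice. The transcripts share exons, so the split of reads between starts is an estimate by the authors' software. The lung showed no such separation. There the distal share was 41.8, 7.45 and 42.7% in trained knockout, 14.7, 5.09 and 67.0% in sedentary knockout, 13.6, 20.3 and 12.6% in trained vehicle and 8.92, 18.5 and 19.8% in sedentary vehicle libraries, and every pair of groups overlapped.

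**Figure D2:**
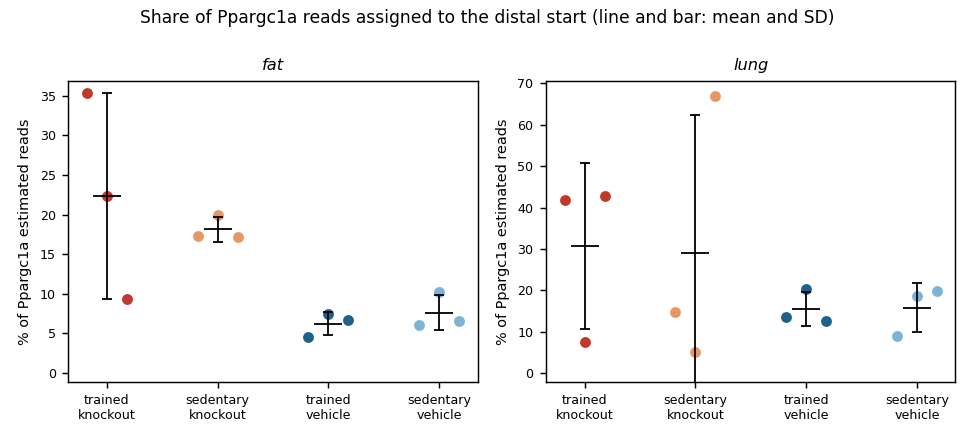
Share of the estimated Ppargc1a reads assigned to the distal start, in percent, for fat and lung. Points are libraries, the line and bar are the mean and SD of 3. In fat every knockout library lies above the vehicle libraries of the same training state, and in lung the groups overlap.

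Prdm16, the identity regulator on chromosome 4 from 154400582 to 154721331 on the minus strand, stood at 8.33, 10.3 and 6.61 CPM in trained knockout and 7.33, 10.7 and 9.41 CPM in sedentary knockout fat. In trained vehicle fat it was 6.50, 7.16 and 4.08 CPM and in sedentary vehicle fat 5.14, 6.55 and 6.01 CPM. The sedentary knockout libraries lay above the sedentary vehicle libraries without overlap, with a log2 fold change of 0.64 (SE 0.23, adjusted p 0.183 in edgeR). In trained mice the groups overlapped and the value was 0.49 (SE 0.23, adjusted p 0.208). Training gave -0.17 (SE 0.23) in knockout and -0.02 (SE 0.23) in vehicle mice.

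The effector genes were barely present in white fat. Cidea, on chromosome 18, was 1.32, 1.42 and 1.99 CPM in trained knockout, 2.29, 1.19 and 2.90 in sedentary knockout, 0.874, 0.795 and 1.93 in trained vehicle and 2.86, 2.46 and 1.49 CPM in sedentary vehicle fat, and all compared groups overlapped. Its lowest adjusted p was 0.29, for training in vehicle mice (log2 fold change -0.93, SE 0.44). Ucp1, on chromosome 8 from 84016977 to 84025086 on the plus strand, had 21, 1 and 0 estimated reads in trained knockout, 0, 0 and 1 in sedentary knockout, 1, 0 and 0 in trained vehicle and 0, 0 and 3 in sedentary vehicle libraries. A count of 0 allows up to 3 reads, which is 0.0962 to 0.158 CPM across the fat libraries and covers counting error only. Elovl3, on chromosome 19 from 46120336 to 46124134 on the plus strand, had 0, 29 and 1 reads in trained knockout and at most 6 in any other fat library. The library with 29 reads, trained knockout replicate 2, also had 1510 CPM of the hepatocyte gene Alb, against at most 215 CPM in the other fat libraries. Elovl3 was high in liver, and the part of liver transcripts in this value was not tested. Ucp1 and Elovl3 were under the filter and got no test. Ucp1 passed 3 reads in 1 fat library, and its correlations with the other 6 members over the 12 libraries had an adjusted permutation p of 0.581 to 0.908 for Pearson's r.

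**Figure D3:**
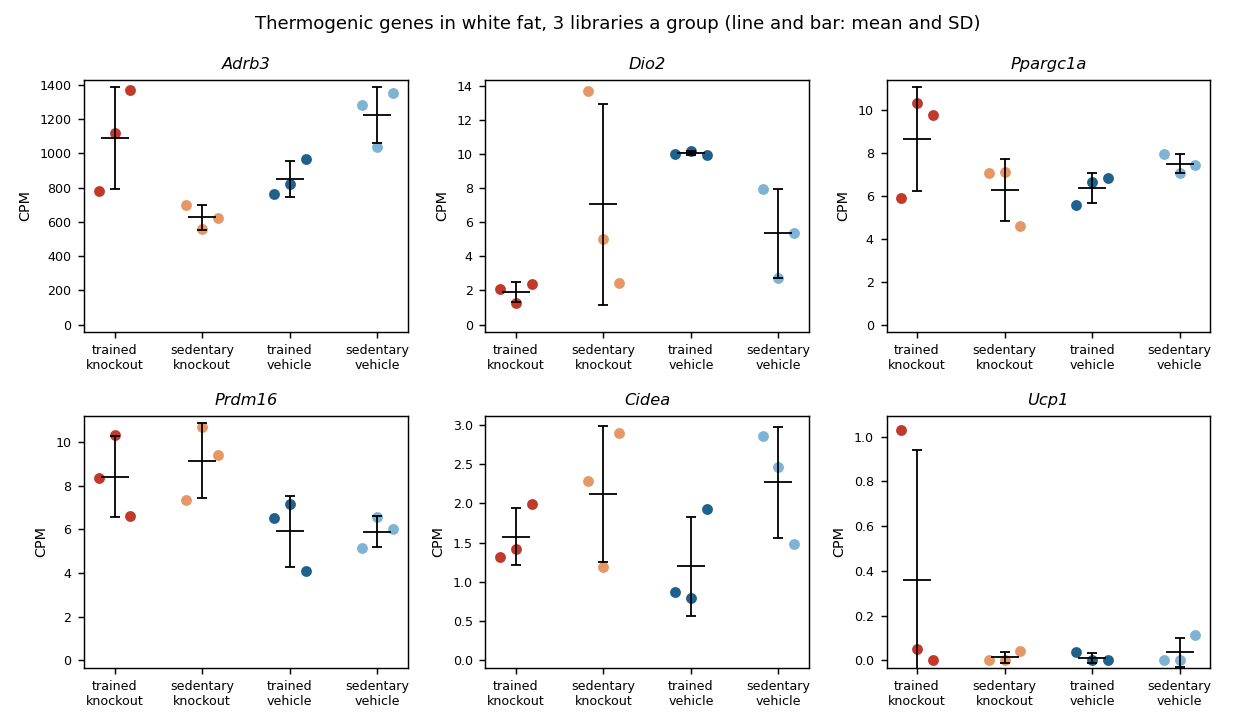
CPM of 6 thermogenic genes in the 12 white fat libraries. Points are libraries and the line and bar are the mean and SD of 3. Dio2 is lowest in the trained knockout libraries (1.27 to 2.37 CPM) and tight in the trained vehicle libraries, and Adrb3 is lowest in the sedentary knockout libraries.

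**Figure D4:**
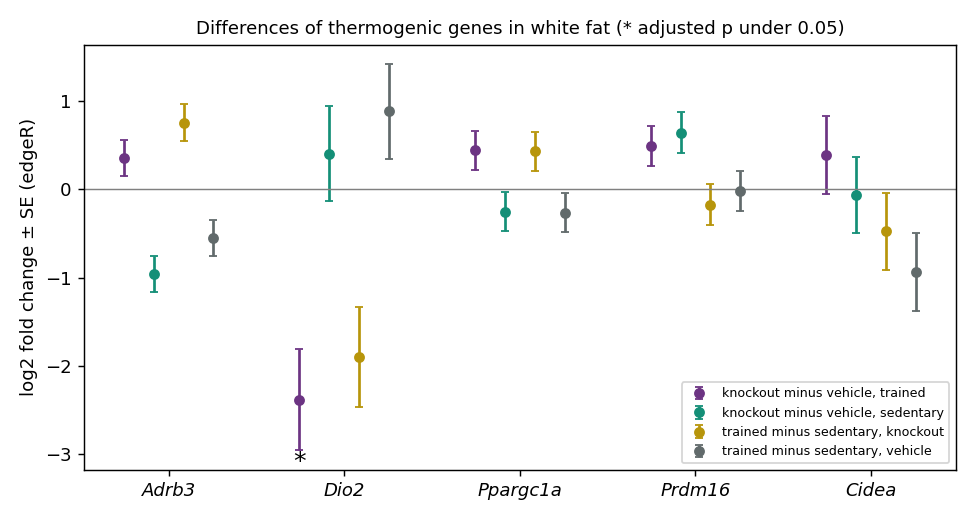
Log2 fold changes with SE of the 5 tested genes in white fat for 4 comparisons, from edgeR. The star marks the 1 value with an adjusted p under 0.05, Dio2 for knockout against vehicle in trained mice.

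In the other white fat comparisons edgeR called 0 of the 5 members. For knockout against vehicle in sedentary mice 2 of 5 had an unadjusted p under 0.05, against 17.9% of all genes, and edgeR called 0.557% of all genes. DESeq2 called 1 of 5 and 5.84% of all genes there. For training in knockout mice 2 of 5 were under 0.05 unadjusted, against 16.3% of all genes, and DESeq2 called 2 of 5 and 3.98% of all genes. For training in vehicle mice 1 of 5 was under 0.05 unadjusted, against 18% of all genes, and DESeq2 called 0 of 5 and 5.45% of all genes. For the difference of the training effects 3 of 5 were under 0.05 unadjusted, against 18.4% of all genes, and DESeq2 called 2 of 5 and 5.04% of all genes. In each of these last 3 comparisons edgeR called 0% of all genes.

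The wider pathway was described with lists of other genes. Of 19 genes of beta-adrenergic signalling and lipolysis, 2 were called higher and 0 lower in trained knockout against trained vehicle fat. There 0.842% of all genes were called higher, and the median log2 fold change over all genes was -0.003. Of the 19 genes 16 were positive, with a median of 0.34. The called genes were the beta-1 receptor Adrb1 (0.63, SE 0.14, adjusted p 0.0392) and the adenylyl cyclase Adcy6 (0.48, SE 0.11, adjusted p 0.0432). Of 14 white adipocyte genes 0 were called, 14 were positive, and the median was 0.31. Of 20 tested genes of brown fat and mitochondrial oxidation 0 were called, 17 were positive and the median was 0.38. Of 12 tested beige and regional identity genes 0 were called, 7 were positive and the median was 0.25. Of 8 genes of futile and creatine cycles 5 were positive, with a median of 0.12. Of these 8, 1 was called lower, the creatine transporter Slc6a8 (-1.23, SE 0.30, adjusted p 0.0471), where 3.59% of all genes were called lower. In the same comparison 0 of 7 macrophage markers were positive (median -0.852), and their part in these list medians was not tested. In sedentary knockout against sedentary vehicle fat the phosphodiesterase Pde4d, which breaks down cAMP, was the 1 called gene of the beta-adrenergic list (0.58, SE 0.11, adjusted p 0.0473), where 0.427% of all genes were called higher. The list median was -0.01. Training called no gene of these lists in edgeR. Its list medians in vehicle mice were -0.44 for the brown fat list, -0.33 for the beta-adrenergic list and -0.32 for the white adipocyte list, against 0.03 over all genes. In the same comparison 7 of 7 macrophage markers (median 0.75) and 9 of 9 tested B and T cell markers (median 1.98) had positive values, with 0 called, and their part in these medians was not tested.

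Brown fat lies against the great vessels of the heart and can be taken with it. In heart the effector genes varied widely between the libraries of a group, and none of the 5 tested members passed the test. Ucp1 was 11, 11.4, 0.0474, 8.23 and 48.8 CPM in trained knockout hearts and 6.49, 0, 13.2, 1.54 and 3.74 CPM in sedentary knockout hearts. It was 31.2, 0, 0.159, 0.389 and 0 CPM in trained vehicle hearts and 0.510, 0.582, 45.9, 0.121 and 0 CPM in sedentary vehicle hearts. Single libraries in 3 of the 4 groups held most of the signal, with 887 reads in trained knockout replicate 5, 849 in sedentary vehicle replicate 3 and 478 in trained vehicle replicate 1. The compared groups overlapped. Knockout over vehicle gave a log2 fold change of 2.09 (SE 1.03, adjusted p 0.338) in trained and 0.67 (SE 1.03, adjusted p 0.957) in sedentary hearts, by limma on log2(CPM + 1). In sedentary hearts the direction turned with the scale, since mean Ucp1 was 5 CPM in knockout and 9.41 CPM in vehicle mice, a ratio of 0.531. Sedentary vehicle replicate 3 held 45.9 CPM, and the next highest of its group held 0.582 CPM.

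Adrb3 and Elovl3 followed Ucp1 from heart to heart. In the 5 trained knockout hearts Adrb3 was 1.17, 0.604, 0, 1.01 and 4.89 CPM and Elovl3 0.554, 0.604, 0, 0.651 and 2.86 CPM. In sedentary knockout hearts Adrb3 was 0.478, 0, 1.33, 0.0550 and 0.572 CPM and Elovl3 0.266, 0, 1.33, 0.110 and 0.104 CPM. Among trained vehicle hearts the highest values were 3.33 CPM of Adrb3 and 1.70 CPM of Elovl3, both in replicate 1, and among sedentary vehicle hearts 2.59 and 4.43 CPM, both in replicate 3, with all other vehicle hearts at or under 0.101 CPM. These are the libraries in which Ucp1 was also highest. Over the 20 hearts, on log2(CPM + 1), Pearson's r with Ucp1 was 0.949 for Adrb3 (Spearman 0.894), 0.915 for Elovl3 (0.881) and 0.827 for Cidea (0.725). The permutation p of r was 1e-05 for each, the smallest that the permutations can give, and 4.33e-05 after Benjamini-Hochberg adjustment over 13 relations in fat and heart. For Spearman's rho the permutation p was 1e-05, 1e-05 and 0.00044. Without the 2 hearts farthest from the median of Ucp1, r was 0.936, 0.916 and 0.705 for the same genes. Each group holds 5 hearts, too few for an r of its own.

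Cidea had a floor in heart. It was 23.8, 21.8, 15.9, 22 and 41.2 CPM in trained knockout, 18.7, 14.6, 18.6, 15.8 and 18.4 in sedentary knockout, 34.1, 21, 20.2, 18.7 and 16 in trained vehicle and 18.8, 21.4, 37.1, 16.6 and 15.2 CPM in sedentary vehicle hearts. The 4 hearts in which Ucp1 had 0 reads still held 14.6 to 21 CPM of Cidea, and the 3 with the highest Ucp1 held the 3 highest Cidea values. Its largest difference was trained over sedentary in knockout mice, a log2 fold change of 0.45 (SE 0.21, adjusted p 0.399 in limma).

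Dio2, Ppargc1a and Prdm16 gave no adjusted p under 0.05 against Ucp1 in heart. For Dio2, r was 0.457 (Spearman 0.207, permutation p 0.0428 and 0.379, adjusted 0.139 and 0.938) and fell to 0.048 without the 2 farthest hearts, so it rested on them. For Ppargc1a r was -0.049 (Spearman 0.044, permutation p 0.838 and 0.853) and for Prdm16 -0.026 (Spearman 0.012, permutation p 0.912 and 0.961). Zic1, the interscapular marker, had 0 reads in the 3 hearts with the most Ucp1 reads and at most 9 reads in any heart.

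**Figure D5:**
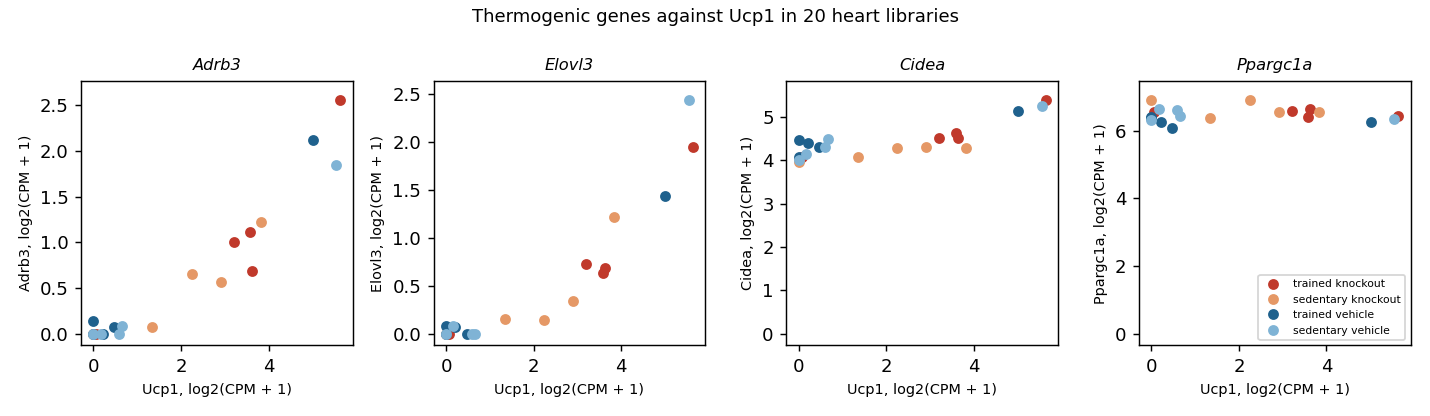
Adrb3, Elovl3, Cidea and Ppargc1a against Ucp1 in the 20 heart libraries, both axes as log2(CPM + 1), coloured by group. Adrb3 and Elovl3 start at 0 and climb with Ucp1, Cidea climbs from a floor of 14.6 CPM, and Ppargc1a shows no such climb.

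The genes most like Ucp1 across hearts, out of 11060 ranked, were Plin1 (r 0.987), Fasn (0.983), Adipoq (0.983), Scd1 (0.981), Cidec (0.977), Prkar2b (0.969), Pck1 (0.968) and Car3 (0.967). Plin1, Cidec and Adipoq are genes of adipocytes, and Fasn and Scd1 make fatty acids. Adipoq was 5.17, 3.18, 0.142, 5.27 and 21.7 CPM in trained knockout hearts, with replicates in the order used for Ucp1, and 9.40 and 11.8 CPM in trained vehicle replicate 1 and sedentary vehicle replicate 3. The leptin gene Lep reached 1.71, 1.89 and 2.65 CPM in these 3 hearts with the most Ucp1. How much adherent tissue each heart carried was not measured, and its part in the group values of Ucp1, Adrb3, Elovl3 and Cidea was not tested.

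Ppargc1a was present in every heart, where it is known as a regulator of oxidative metabolism in cardiomyocytes. It was 84.2, 99.3, 92.4, 96.0 and 85.5 CPM in trained knockout and 92.6, 119, 93.8, 83.1 and 120 CPM in sedentary knockout hearts. In trained vehicle hearts it was 75.6, 83.1, 75.3, 66.9 and 84.4 CPM and in sedentary vehicle hearts 96.2, 85.3, 80.0, 99.2 and 78.9 CPM. The trained vehicle hearts were the lowest of the 4 groups on average, and overlapped the trained knockout hearts by 1 library. Knockout over vehicle gave 0.25 (SE 0.09, adjusted p 0.176 in limma) in trained and 0.20 (SE 0.09, adjusted p 0.727) in sedentary hearts. Trained over sedentary gave -0.19 (SE 0.09, adjusted p 0.19) in vehicle and -0.14 (SE 0.09, adjusted p 0.558) in knockout hearts. Prdm16 stayed at 11.2 to 17.8 CPM with log2 fold changes from -0.02 to 0.03 in the 4 group comparisons. Dio2 averaged 0.844 ± 0.335 CPM in sedentary knockout and 1.52 ± 0.708 CPM in sedentary vehicle hearts (SD, n = 5 each), a difference of -0.43 (SE 0.18, adjusted p 0.684 in limma).

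In heart limma called 0 of the 5 tested members in all 5 comparisons. For knockout in trained mice it called 0.52% of all 13456 genes, and 1 of the 5 members was under 0.05 unadjusted, against 15.1% of all genes. For knockout in sedentary mice it called 0% of all genes, and 2 of 5 were under 0.05 unadjusted, against 6.54%. For training in knockout mice it called 0.0223%, and 1 of 5 was under 0.05 unadjusted, against 11.8%. For training in vehicle mice it called 8.27%, and 1 of 5 was under 0.05 unadjusted, against 24.5%. For the difference of training effects it called 0%, and 0 of 5 were under 0.05 unadjusted, against 8.06%. No count model was run on the scaled heart values. For training in vehicle mice a few other genes of the lists were called. The cytochrome oxidase subunit Cox8b was higher (0.34, SE 0.09, adjusted p 0.0238), as was the immediate early gene Nr4a1 (0.91, SE 0.24, adjusted p 0.0207). The fatty acid carrier Fabp4, from the white adipocyte list, was also higher (0.35, SE 0.10, adjusted p 0.0287). The factor Creb1 (-0.31, SE 0.06, adjusted p 0.00662) and the phosphodiesterase Pde4d (-0.34, SE 0.08, adjusted p 0.0128) were lower. Of 19 beta-adrenergic and lipolysis genes 2 were called higher and 3 lower, where 4.72% of all genes were called higher and 3.55% lower, with a median of -0.004. Of 18 tested brown fat and oxidation genes 1 was called higher and 0 lower, with a median of -0.03. Of 12 tested white adipocyte genes 1 was called higher and 0 lower, with a median of -0.003. Of 8 cardiomyocyte markers 2 were called higher and 0 lower, with a median of 0.134. The part of cardiomyocyte transcripts in these calls was not tested. Of 5 red blood cell markers, 4 were called higher in the same comparison, among them Hbb-bs (0.75, SE 0.16, adjusted p 0.00662), and their part was not tested. Their summed level was 2250 to 3550 CPM in trained vehicle and 1450 to 2010 CPM in sedentary vehicle hearts. In trained hearts the fatty acid binding protein Fabp3 was lower in knockout than in vehicle mice (-0.32, SE 0.07, adjusted p 0.0379), where 0.357% of all genes were called lower.

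In lung the thermogenic effectors stood out in 1 library. Trained knockout replicate 3 had 681 Ucp1 reads (23.7 CPM), 59 Elovl3 reads (2.05 CPM) and 17.2 CPM of Cidea. The other trained knockout lungs had 21 and 7 Ucp1 reads, and the 9 lungs of the other groups at most 5. Cidea was 6.15 and 4.12 CPM in the other trained knockout lungs, 3.10, 2.38 and 4.26 in sedentary knockout, 3.01, 5.24 and 3.42 in trained vehicle and 2.30, 3.88 and 4.53 CPM in sedentary vehicle lungs. Its log2 fold change was 1.54 (SE 0.46, adjusted p 0.24 in edgeR) for training in knockout mice and 1.26 (SE 0.45, adjusted p 0.282) for knockout in trained mice. Adipoq was 20.7 CPM in trained knockout replicate 3, within the range of the other lungs, which reached 48.0 CPM in sedentary vehicle replicate 3, a library with 0 Ucp1 reads. Prdm16 in trained knockout lungs was 53.9, 42.5 and 27.0 CPM, and the lowest value belonged to replicate 3. It was 45.4 to 55.1 CPM in the other groups. Adrb3 was 27.8, 21.8 and 25.3 CPM in trained knockout lungs, above the trained vehicle lungs at 19.5, 19.4 and 19.9 CPM (log2 fold change 0.35, SE 0.18, adjusted p 0.337 in edgeR). Neither edgeR nor DESeq2 called any of the 5 tested members in lung, and an unadjusted p under 0.05 was seen for Cidea alone, in these 2 comparisons. Of all genes 16.6% and 16.2% were under 0.05 unadjusted there, and 12.8%, 13.6% and 15.2% for training in vehicle mice, for knockout in sedentary mice and for the difference of training effects. In edgeR 0.204% of all genes were called for training in vehicle mice and 0% in the other lung comparisons.

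In liver, Ppargc1a and Elovl3 differed between trained and sedentary knockout mice in opposite directions without passing the test. Ppargc1a, in liver a fasting-induced coactivator of gluconeogenesis, was 12.8, 11.2, 11.8, 7.15 and 9.45 CPM in trained knockout and 6.57, 8.04, 5.35, 7.18 and 6.31 CPM in sedentary knockout livers. It was 6.92, 10.3, 5.78, 5.74 and 10 CPM in trained vehicle and 8.20, 7.18, 6.32, 10.1 and 7.45 CPM in sedentary vehicle livers. Of the trained knockout livers 4 of 5 lay above every sedentary knockout liver. Training gave a log2 fold change of 0.57 (SE 0.17, adjusted p 0.274 in limma) in knockout and -0.04 (SE 0.17, adjusted p 0.981) in vehicle mice, and the difference between these was 0.60 (SE 0.24, adjusted p 0.387). Knockout over vehicle gave 0.41 (SE 0.17, adjusted p 0.16) in trained livers. Skeletal muscle markers summed to 0.323 to 203 CPM in trained knockout, 0.623 to 1.40 in sedentary knockout and 0.144 to 1.52 CPM in trained vehicle livers. For training in knockout mice 5 of 5 tested muscle markers and 7 of 7 macrophage markers were positive, with 0 called. The part of these markers in the Ppargc1a values was not tested. Elovl3, a rhythmic and sex-dependent elongase in mouse liver, was 28.0, 41.7, 45.1, 53.5 and 43.3 CPM in trained knockout and 76.8, 64.1, 71.8, 57.6 and 61.7 CPM in sedentary knockout livers, with no overlap. Its log2 fold change was -0.66 (SE 0.25, adjusted p 0.316 in limma). In vehicle mice trained livers had 47.5, 56.8, 44.8, 40.1 and 136 CPM against 52.8, 102, 72.9, 58.0 and 85.6 CPM in sedentary livers (-0.31, SE 0.25, adjusted p 0.857). Adrb3 ranged from 1.84 to 11.8 CPM and Cidea from 0 to 10.1 CPM, and neither passed. Of 4 tested members limma called 0 in each of the 5 comparisons. Under training in knockout mice 2 of 4, Ppargc1a and Elovl3, were under 0.05 unadjusted, against 11.8% of all 12817 genes, and 0.0234% of all genes were called. In trained livers Ppargc1a alone was under 0.05 unadjusted, against 21.9% of all genes, and 2.63% were called. In the difference of training effects it was again Ppargc1a alone, against 10.2%, and 0.0078% were called. For knockout in sedentary mice and training in vehicle mice 0 of 4 were under 0.05 unadjusted, against 4.81% and 6.9% of all genes, and 0% were called.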

How the data were processed

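Members and gene lists were chosen with earlier results of these data known. RNA came from Trizol and RNeasy columns, per the labels' protocols. The submitters' processing notes name STAR 2.7.8a, Partek, mm10 and GRCm39 without a role for each. For fat and lung the authors deposited expected counts, estimated reads per transcript, which were summed per symbol and rounded here. For heart and liver the deposited unit is a scaled signal, estimated reads divided by 1 factor per library. Between 80.9 and 83.7% of values from 0.05 to 100 are whole multiples of a library's step within 0.02 reads, too few for a count test. These values were divided by 1 factor per tissue to reach the CPM scale. CPM is not corrected for length, so genes are not compared with each other.

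Each tissue had 1 model with a mean per group and 5 comparisons. Fat and lung were tested with edgeR 4.0.16 (TMM, filter by group, quasi-likelihood; the SE is the log2 fold change divided by the root of F). Heart and liver were tested with limma 3.58.1 with a trend on log2(CPM + 1), for genes with a mean of at least 1 CPM, so their fold changes understate those of low genes. Benjamini-Hochberg adjustment ran over all genes, with calls under 0.05. Alternatives were DESeq2 1.42.0, RLE factors, no filter, a pseudocount of 0.1, a replicate block, the compared groups alone and leaving out each library. On simulated data with known changes at 2-fold, training in vehicle mice recovered 67 of 100 genes in fat (15448 genes simulated), 93 in heart (13456), 68 in lung (16151) and 77 in liver (12817). At 1.5-fold it recovered 25 of 100 in fat, 88 in heart, 20 in lung and 53 in liver. False calls numbered 5, 13, 0 and 8 in that order of tissues. Each gene was drawn on its own, without variation shared by the genes of a library, so recovery in the real libraries can be lower. In the real fat libraries this comparison called 0 of 15448 genes. Named genes were all members, up to 4 called list genes per direction in fat and heart, and the 8 genes most correlated with Ucp1. A gene that this rule selects is not reported here. Promoters are RefSeq windows of GRCm38.p6. The files use GRCm39, and no coordinate was carried between the builds. Programs ran in R 4.3.3.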

Additional observations from a re-analysis of the deposited data

Results flagged for a closer look

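In groups of 5 libraries, a value was singled out when its gap to the nearest other library took up more than 0.71 of the range of the group. Of 55 groups tested in heart and liver, 25 were singled out, and chance gives about 1 in 20 where values are normally distributed. That rate does not hold for genes near 0 reads, where 1 library with a few reads among zeros is always singled out. The same 3 hearts also gave most of the heart values, so the values are not independent. No explanation was weighed. Groups of 3 libraries were not tested.

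In heart, the same libraries stood apart for several members. Trained knockout replicate 5 had 48.8 CPM of Ucp1, 4.89 of Adrb3, 2.86 of Elovl3 and 2.42 of Dio2, and the nearest trained knockout hearts had 11.4, 1.17, 0.651 and 1.30 CPM. Trained vehicle replicate 1 had 31.2 CPM of Ucp1, 34.1 of Cidea, 3.33 of Adrb3 and 1.70 of Elovl3, with the nearest trained vehicle hearts at 0.389, 21, 0.101 and 0.0605 CPM. Sedentary vehicle replicate 3 had 45.9 CPM of Ucp1, 37.1 of Cidea, 2.59 of Adrb3 and 4.43 of Elovl3, with the nearest at 0.582, 21.4, 0.0582 and 0.0606 CPM. Sedentary knockout replicate 3 had 1.33 CPM of Elovl3. Zic1 stood apart at a few reads, 0.142 CPM in trained knockout replicate 3 and 0.523 CPM in sedentary vehicle replicate 2.

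In liver, Elovl3 was 136 CPM in trained vehicle replicate 5, with the nearest at 56.8 CPM. Adrb3 was 11.7 CPM in sedentary knockout replicate 3 and 11.8 CPM in trained vehicle replicate 1. Cidea was 2.02 CPM in trained knockout replicate 4 and 10.1 CPM in sedentary vehicle replicate 2, and Prdm16 was 0.533 CPM in sedentary vehicle replicate 4. Low Zic1 values stood apart at 0.228 CPM in trained knockout replicate 2, 1.07 CPM in sedentary knockout replicate 4, 1.57 CPM in trained vehicle replicate 1 and 0.0484 CPM in sedentary vehicle replicate 4.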

How the results depend on the processing

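Of 95 member tests, only the 20 with an unadjusted p under 0.05 in edgeR or limma were recomputed. Such values are less likely to turn sign than the rest, whose direction was not rechecked. In 271 recomputed values 0 turned sign, 258 kept their side of the limit, 7 lost the call (all Dio2 in trained fat) and 6 gained one, and the cause was not tested. Only 1 of the 20 was a call, so most values that kept their side had stayed uncalled. In white fat DESeq2 called 2 members for training in knockout mice, 1 for knockout in sedentary mice and 2 for the difference of training effects, against 0 in edgeR, and over all genes it called 553, 908 and 701 there, against 0, 86 and 0 in edgeR. With no filter on low genes the call of Dio2 in trained mice was lost (0 called). Leaving out each library gave 0 to 1 called members for knockout in trained mice, 0 to 1 for the difference of training effects and 0 to 1 for knockout in sedentary mice. Libraries outside a comparison were left out as well, a choice made after seeing the data, and 3 of 6 such fits lost the Dio2 call. Over all genes, edgeR called 685 for knockout in trained fat, 418 with no filter, and DESeq2 1959.

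Replicate numbers recur across groups, and no pairing was assumed. In fat the correlation of deviations between libraries of the same number ran from -0.613 to 0.566. Its median was -0.0631, against 0.103 between libraries of other numbers. These medians were 0.0292 against -0.00545 in heart, 0.0382 against -0.065 in lung and -0.0349 against 0.000473 in liver. They cannot exclude that single libraries were paired. With the number as a replicate block the count for knockout in trained fat stayed at 1 member, and no other count of called members changed in any tissue. edgeR on heart and liver reads was not run, since too few values are whole multiples of a read. Genes with at most 3 reads in most libraries are limited by depth, among them Ucp1 (11 of 12 fat libraries) and Elovl3 (9 of 12).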
